A study of Homo sapiens with 16 samples.

Results

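The 8 genes described here encode receptors for growth and survival factors of the neural crest: ALK, RET, the RET co-receptors GFRA1, GFRA2 and GFRA3, the neurotrophin receptor kinases NTRK2 (TrkB) and NTRK3 (TrkC), and NGFR (p75NTR). They were taken by gene symbol from the deposited table of estimated counts, where they are 8 of 63187 genes. Of the 8, 5 (RET, ALK, GFRA2, NTRK3 and NGFR) had enough counts to be tested, among 19530 tested genes. RNA was sequenced from SK-N-BE(2), an established human neuroblastoma cell line, in 16 libraries that form 4 groups of 4. WT cells are labelled wild type, and the other groups carried a transfected form of HIF-2α, a transcription factor subunit encoded by EPAS1: the full-length protein (FL), a form that the design calls ΔN-CTAD (NCTAD here), or a form that it calls Δc-IDR (cIDR here). All groups grew at 21% O2 with 10% FBS. Each replicate number, 1 to 4, is also a batch in the labels, and each batch holds 1 library of every group.

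The labels do not say whether WT cells received an empty vector, so transfection and HIF-2α cannot be told apart in a comparison with WT. They do not name the vector, the time after transfection or the residues removed, and do not say whether replicates were separate cultures, so p-values measure only the spread between these libraries. EPAS1 had 13.0 to 28.1 CPM (counts scaled to TMM-adjusted library size) in the WT libraries and 1320 to 5852 CPM in the 12 transfected ones. Totals were 38.6 to 56.1 M (mega) counts per library. The line's adrenergic neuroblastoma markers were all tested and summed to 5921 to 7403 CPM, whereas the Schwann cell marker SOX10 had no count in 13 of the 16 libraries.

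As background, ALK and RET are receptor tyrosine kinases, and activating ALK mutations are a known driver of neuroblastoma. RET binds ligands of the GDNF family only together with a GFRA co-receptor, which is held at the membrane by a lipid anchor: GFRA1 prefers GDNF, GFRA2 neurturin and GFRA3 artemin. NTRK2 is the receptor of BDNF and NTRK3 that of neurotrophin-3, and NGFR, which has no kinase, binds all neurotrophins. These receptors signal through adaptors such as SHC1 and FRS2 to the RAS and ERK cascade, and sympathetic neuroblasts depend on several of them as they mature.

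HIF-2α binds DNA together with ARNT at the core sequences ACGTG and GCGTG, and the promoters of members are shown because HIF-2α is what the groups vary. The RefSeq table of promoters, on GRCh38.p14, held 6 of the 8 members (not NGFR and GFRA2), and the most upstream of the starts it lists was used for each. The window ran from 250 bases before to 50 bases after the start, and both strands were searched, so that a core on the other strand reads CACGT or CACGC. The palindrome CACGTG, which other factors also bind, was counted as a match and was found in none of the 6. For the 3 tested members in that table, the sequences on the gene's strand follow, with matches in capitals.
ALK, chr2:29921537-29921836, minus strand: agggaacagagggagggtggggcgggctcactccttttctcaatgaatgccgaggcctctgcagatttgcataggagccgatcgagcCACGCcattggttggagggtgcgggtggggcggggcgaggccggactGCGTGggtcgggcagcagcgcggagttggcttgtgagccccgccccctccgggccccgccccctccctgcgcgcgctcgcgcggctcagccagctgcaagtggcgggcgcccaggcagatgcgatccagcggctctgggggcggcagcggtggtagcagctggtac
RET, chr10:43076819-43077118, plus strand: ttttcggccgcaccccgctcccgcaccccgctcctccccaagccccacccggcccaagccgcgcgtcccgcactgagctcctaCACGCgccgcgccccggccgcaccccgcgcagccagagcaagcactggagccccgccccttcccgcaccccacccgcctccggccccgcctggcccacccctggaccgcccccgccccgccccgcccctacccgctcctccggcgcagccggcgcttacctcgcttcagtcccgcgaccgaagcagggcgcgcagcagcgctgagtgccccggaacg
NTRK3, chr15:88256690-88256989, minus strand: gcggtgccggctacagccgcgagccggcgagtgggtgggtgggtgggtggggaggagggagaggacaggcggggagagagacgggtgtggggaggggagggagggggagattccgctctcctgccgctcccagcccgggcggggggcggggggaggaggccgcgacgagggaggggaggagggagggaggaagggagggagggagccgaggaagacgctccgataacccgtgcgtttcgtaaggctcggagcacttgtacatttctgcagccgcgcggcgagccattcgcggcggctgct
ALK had 2 matches, whose first bases lay at -163 and -116 from the start site, RET had 1 at -167, and NTRK3 had none. GFRA1, GFRA3 and NTRK2 had 1 match each. A match was present in 48.4% of all 35116 promoters of this length, so that its presence in 5 of 6 members describes the sequence and nothing more.

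RET was by far the most abundant of the 8 transcripts. On the length-scaled TPM scale the means over the 16 libraries were 135.5 for RET, 4.79 for GFRA2, 2.28 for NTRK3, 1.99 for NGFR, 1.09 for ALK and 0.127 for GFRA3. RET exceeded GFRA2 in 16 of 16 libraries, 19.8 to 40.0 times, and their ranges did not overlap. GFRA2 exceeded NTRK3 in 16 of 16 libraries, and NGFR exceeded ALK in 16 of 16, although the ranges over all libraries overlapped. The order of NTRK3 and NGFR turned with the batch: NTRK3 was the higher in 2 of 8 libraries of batches 1 and 2 and in 8 of 8 of batches 3 and 4, which makes 10 of 16 in all. The RET locus lies at chr10:43077069-43130351 that of ALK at chr2:29192774-29921586, that of NTRK3 at chr15:87859751-88256739 and that of NGFR at chr17:49495293-49515008, in the RefSeq annotation of GRCh38.p14.

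**Figure D1:**
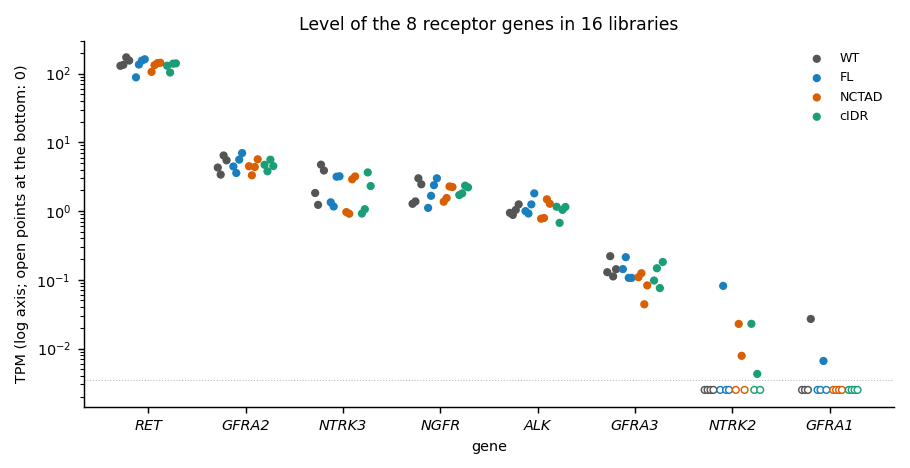
TPM of each of the 8 genes (x axis) in 16 libraries, on a log axis; each point is a library, colours are the 4 groups, and open points under the dotted line are libraries at 0. RET lies above every other member, and NTRK2 and GFRA1 are at 0 in 11 and 14 libraries.

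The other 3 members were at the edge of detection, and none passed the low-count filter. GFRA3, the artemin co-receptor, had a count in every library, 3 to 15. NTRK2, the BDNF receptor, had no count in 11 libraries, and its 22 counts came from 5: 10 in FL replicate 2, 5 in NCTAD replicate 2, 4 in cIDR replicate 1, 2 in NCTAD replicate 3 and 1 in cIDR replicate 3. Its 4 WT libraries were all at 0, which allows up to 0.0558 to 0.0724 CPM in them (3 counts of each total, counting error only). GFRA1, the GDNF co-receptor, had 2 counts in FL replicate 3, 1 in WT replicate 4 and 0 in the other 14 libraries. These 3 genes were therefore not part of the main group tests, and no group difference is reported for them. By batch, GFRA3 had 0.165 ± 0.024, 0.227 ± 0.059, 0.108 ± 0.040 and 0.163 ± 0.064 CPM (mean ± SD, n = 4 libraries) in batches 1 to 4, highest in batch 2. Without the filter its log2 fold change in batch 2 against the others was 0.66 ± 0.39 (SE, adjusted p = 0.239, edgeR).

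No member was called different between groups. In the 7 comparisons (each construct with WT, the constructs with each other, and the 3 constructs together with WT), 0 of the 5 tested members were called at an adjusted p under 0.05, with group as the only term or with batch as a replicate block (edgeR quasi-likelihood test with Benjamini-Hochberg adjustment over all genes). Without the block, 0 members had an unadjusted p under 0.05 in any of these comparisons, and DESeq2 and limma called 0 as well. With the block, an unadjusted p under 0.05 was found in 4 cases: ALK in cIDR against NCTAD, NTRK3 and GFRA2 in NCTAD against WT, and NTRK3 for the constructs together. Few genes of any kind were called: 0.0102% of those tested in FL against WT, 0.0256% in NCTAD against WT, 0.0102% in cIDR against WT, 0.0154% for the constructs together, and 0.0% in each of the 3 comparisons between constructs. With the block the shares were 0.102%, 0.456%, 0.486% and 0.497% in the same order, then 0.0% in NCTAD against FL, 0.0307% in cIDR against FL and 0.00512% in cIDR against NCTAD. The comparisons with WT share the WT libraries. With so few genes called, a count of 0 among 5 members stands at the background.

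RET, the kinase of the GDNF family ligands, had 438, 447, 575 and 539 CPM in the WT libraries of batches 1 to 4. The FL libraries had 375, 452, 528 and 521 CPM, and the NCTAD libraries 404, 441, 518 and 513 CPM. The cIDR libraries had 479, 359, 508 and 524 CPM. The 4 groups overlapped, and within a batch the highest library exceeded the lowest by 1.05 to 1.28 times. With the block the log2 fold change against WT was -0.09 ± 0.08 (SE, n = 4 libraries a group) for FL, -0.09 ± 0.08 for NCTAD and -0.10 ± 0.08 for cIDR, with 95% intervals that together ran from -0.26 to 0.07. RET therefore missed the threshold, and its intervals allowed a lower level of up to -0.26 on the log2 scale. NCTAD was below WT in 4 of 4 batches, and FL and cIDR in 3 of 4 each.

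GFRA2, the neurturin co-receptor, had 8.52, 6.18, 12.7 and 11.6 CPM in WT and 8.93, 6.15, 10.9 and 10.8 CPM in FL. It had 8.11, 6.02, 9.77 and 10.1 CPM in NCTAD and 9.93, 5.88, 10.7 and 10.1 CPM in cIDR. All 4 groups overlapped, and in every group the batch 2 library was the lowest. NCTAD was below WT in 4 of 4 batches, with a log2 fold change of -0.18 ± 0.08 (SE) with the block. Its unadjusted p of 0.0478 was no call after adjustment over all genes (adjusted p = 0.834, edgeR).

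ALK, the receptor of the ALKAL ligands, had 3.32, 3.70, 4.51 and 4.72 CPM in WT and 3.40, 3.96, 4.77 and 4.84 CPM in FL. It had 3.88, 3.43, 6.10 and 5.72 CPM in NCTAD and 3.55, 2.96, 3.74 and 4.22 CPM in cIDR. NCTAD was the highest group in batches 1, 3 and 4 and cIDR the lowest in batches 2, 3 and 4, while the groups overlapped over all batches. Of the members' differences between constructs this was the largest: cIDR was below NCTAD in 4 of 4 batches, by 0.13, 0.21, 0.70 and 0.43 on the log2 scale, with a fitted log2 fold change of -0.38 ± 0.12 (SE) with the block. The unadjusted p was 0.00572, and the adjusted p 0.9998. Group as the only term gave -0.41 ± 0.20 (unadjusted p = 0.0623), and limma on log2(TPM + 1) gave -0.05. On the TPM scale the order held in batches 2, 3 and 4 and turned in batch 1, where cIDR had 1.15 TPM and NCTAD, the lowest library of that batch, 0.774 TPM. FL, at 1.81 TPM, was above NCTAD, at 1.28 TPM, in batch 4. A test of any difference among the 4 groups, added after the data had been seen, gave an unadjusted p of 0.0400 for ALK with the block (adjusted p = 1.00, edgeR). FL and WT were close in each batch, at 0.06 ± 0.12 (95% interval -0.19 to 0.31). ALK rests on 131 to 337 counts per library, and the ratio of its count to its TPM, which follows the average transcript length that salmon used, varied 1.56-fold between libraries.

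NTRK3, the neurotrophin-3 receptor, had 4.45, 4.21, 9.34 and 8.74 CPM in WT and 2.99, 3.54, 9.07 and 9.26 CPM in FL. It had 2.83, 3.09, 9.28 and 8.26 CPM in NCTAD and 3.65, 3.73, 9.07 and 8.33 CPM in cIDR. On the CPM scale the WT library was the highest in batches 1 and 2, at 1.57 and 1.36 times the lowest. In batches 3 and 4 the highest library exceeded the lowest by 1.03 and 1.12 times. On the TPM scale, by contrast, WT was the highest library in every batch. In batch 3 it had 4.73 TPM and the constructs 2.90 to 3.65 TPM. In batch 4 it had 3.89 TPM and the constructs 2.31 to 3.21 TPM. The log2 fold change of NCTAD against WT was -0.28 ± 0.11 (SE) with the block, lower in 4 of 4 batches (unadjusted p = 0.0227, adjusted p = 0.686, edgeR). For the 3 constructs together it was -0.20 ± 0.09 (unadjusted p = 0.0381, adjusted p = 0.732, edgeR). Whether the difference from WT depends on the batch was not tested. Between libraries, the ratio of count to TPM varied 1.93-fold for NTRK3, and the SD of its log2 was 0.30, above that of 94.9% of 15860 expressed genes. NTRK3 is known to have a kinase form and truncated forms, and gene-level counts do not separate them.

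NGFR, the p75 neurotrophin receptor, had 2.94, 3.11, 6.92 and 5.69 CPM in WT and 2.94, 3.82, 5.61 and 6.53 CPM in FL. It had 3.65, 3.57, 5.48 and 5.44 CPM in NCTAD and 4.25, 4.24, 5.73 and 5.40 CPM in cIDR. The cIDR library was the highest in batches 1 and 2 and the WT library in batch 3, so the order of the groups changed from batch to batch. With the block, the log2 fold change of cIDR against WT was 0.14 ± 0.14 (SE, 95% interval -0.15 to 0.44). Its count per TPM varied only 1.04-fold between libraries.

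All 5 tested receptors differed between batches. A test of any difference between the 4 batches, with group in the model, called 5 of 5 members, where 53.1% of all tested genes were called. Batch 2 had been singled out for a comparison of its own with earlier results of these data known. Set against the mean of batches 1, 3 and 4, batch 2 was lower for 5 of 5 members, where 26.1% of all genes were lower and 53.9% differed in either direction. NTRK3 fell by 0.84 ± 0.09 on the log2 scale (SE, adjusted p = 3.06e-06) and GFRA2 fell by 0.74 ± 0.07 (adjusted p = 5.49e-07). NGFR fell by 0.41 ± 0.12 (adjusted p = 0.00744), ALK by 0.30 ± 0.10 (adjusted p = 0.0167) and RET by 0.21 ± 0.06 (adjusted p = 0.0131), all from edgeR. The members' median was -0.41, beside 0.03 over all tested genes. Leaving out cIDR replicate 2 ended the calls of RET (-0.13, adjusted p = 0.0909) and ALK (-0.29, adjusted p = 0.0587), and leaving out NCTAD replicate 2 ended that of ALK (0.118). Without batch 3, and likewise without batch 4, only 2 members, GFRA2 and NTRK3, were still called, and limma on log2(TPM + 1) did not call RET (-0.12, adjusted p = 0.328) or NGFR (-0.23, adjusted p = 0.0557).

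The pairs of batches, compared after the data had been seen, showed a different division for 4 of the 5 genes. Batch 2 differed from batch 1 in GFRA2 alone, which was lower by -0.55 ± 0.08 (SE, adjusted p = 8.19e-05), where 23.5% of all genes were lower in batch 2; limma on log2(TPM + 1) did not call it (adjusted p = 0.0793). The log2 differences of the other 4 were 0.10 ± 0.14 for NGFR, 0.07 ± 0.11 for NTRK3, 0.00 ± 0.08 for RET and -0.01 ± 0.12 for ALK. The 95% interval of each included 0, and the widest ran from -0.20 to 0.40. Batches 1 and 2 were thus both low for these genes, and batches 3 and 4 both high.

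NTRK3 had 2.83 to 4.45 CPM in the 8 libraries of batches 1 and 2 and 8.26 to 9.34 CPM in the 8 of batches 3 and 4. NGFR had 2.94 to 4.25 CPM in the former and 5.40 to 6.92 CPM in the latter, and RET 359 to 479 against 508 to 575 CPM. These ranges did not overlap in any of the 3 genes. The ratio of the mean of batches 3 and 4 to that of batches 1 and 2 was 2.50 for NTRK3, 1.64 for NGFR and 1.24 for RET. ALK (2.96 to 3.96 against 3.74 to 6.10 CPM, ratio 1.37) overlapped slightly. GFRA2 overlapped too: it had 5.88 to 6.18 CPM in batch 2, apart from all other libraries, 8.11 to 9.93 CPM in batch 1, and 9.77 to 12.7 CPM in batches 3 and 4, where cIDR replicate 1 exceeded NCTAD replicate 3.

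**Figure D2:**
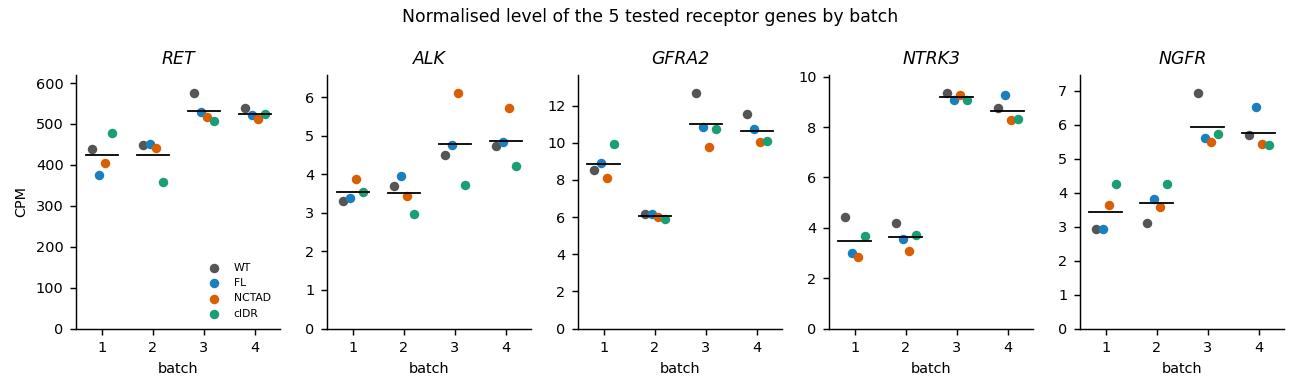
CPM of the 5 tested genes (one panel each, y axes from 0) by batch; each point is a library, colours are the 4 groups, and the black line is the mean of the 4 libraries of a batch. NTRK3, NGFR and RET separate batches 1 and 2 from 3 and 4, while GFRA2 is lowest in batch 2, at 5.88 to 6.18 CPM.

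Against batch 1, batch 3 was higher for 5 of 5 members, where 5.83% of all genes were higher. NTRK3 was higher by 1.41 ± 0.11 on the log2 scale (SE, adjusted p = 7.46e-06) and NGFR by 0.79 ± 0.14 (adjusted p = 0.00296). ALK, RET and GFRA2 were higher by 0.42 ± 0.12, 0.33 ± 0.08 and 0.31 ± 0.08. Batch 4 was higher than batch 1 for 4 of 5 members, where 4.17% of all genes were higher: NTRK3 by 1.33 ± 0.11, NGFR by 0.75 ± 0.14, ALK by 0.46 ± 0.12 and RET by 0.31 ± 0.08. GFRA2, at 0.26 ± 0.08, missed the threshold (adjusted p = 0.0562). Batches 3 and 4 were each higher than batch 2 for 5 of 5 members, where 23.3% and 22.7% of all genes were higher, but limma on log2(TPM + 1) did not call RET (adjusted p = 0.0859 and 0.104). Between batches 3 and 4, 0 of 5 members were called by edgeR, DESeq2 or limma, 0 had an unadjusted p under 0.05, and 0.0% of all genes were called.

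NTRK3 and NGFR were called higher in batches 3 and 4 than in batch 1 whichever single library was left out, whereas the other calls against batch 1 were close to the threshold. For batch 3, the call of ALK was lost without WT, FL or NCTAD replicate 1 or FL or NCTAD replicate 3 (adjusted p 0.0623 to 0.130). That of RET was lost without FL replicate 3 (0.0515) or NCTAD replicate 1 (0.0546), and that of GFRA2 without WT replicate 1 or 3, FL replicate 3 or NCTAD replicate 1 (0.0540 to 0.0677). For batch 4, the call of RET was lost without FL or NCTAD replicate 1 or WT, NCTAD or cIDR replicate 4 (0.0502 to 0.0756), and that of ALK without any of these or WT replicate 1 (0.0515 to 0.0890). GFRA2 passed the threshold there without WT replicate 3 (0.0456) or cIDR replicate 1 (0.0176). On log2(TPM + 1), limma called NTRK3 and NGFR alone in both comparisons.

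**Figure D3:**
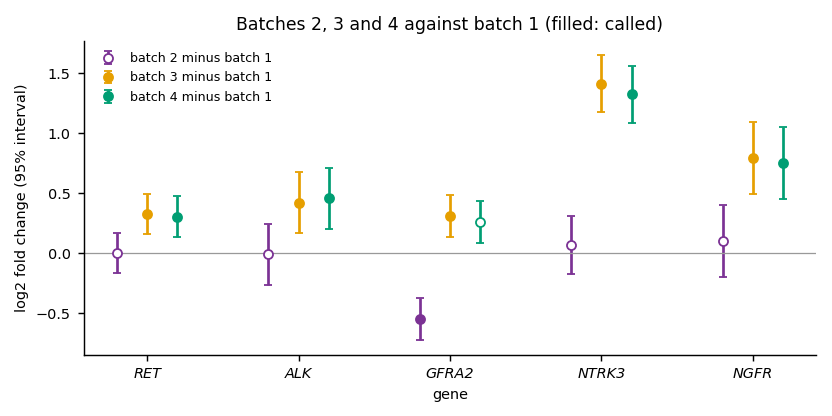
Log2 fold change of batches 2, 3 and 4 against batch 1 (y axis) with 95% intervals for the 5 tested genes, from the edgeR model with group and batch; filled points were called. Batch 2 differs from batch 1 in GFRA2 alone, and batches 3 and 4 lie above 0 for all 5 genes, up to 1.41 for NTRK3.

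Among the other genes of these pathways, none of 58 tested genes in 4 lists (ligands, other receptors, adaptors, ERK response genes) was called in any of the 7 group comparisons, with or without the block (edgeR). At an unadjusted p under 0.05, at most 1 of the 58 passed without the block and at most 4 with it. In batch 2 against the other batches 33 of 58 were called, 22 higher and 11 lower, with a median log2 fold change of 0.11. This is 56.9%, beside the 53.9% of all tested genes.

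Of the 12 ligands, 7 were tested, and 4 (57.1%) were called in batch 2, all higher, where 27.7% of all tested genes were higher and 53.9% differed in either direction. GDNF, which signals through RET with GFRA1, had 60.7 to 77.9 CPM in batch 2 and 29.1 to 45.6 CPM elsewhere (log2 fold change 1.05 ± 0.05). BDNF, the ligand of NTRK2, rose by 1.35 ± 0.26 from a low level, 0.634 to 0.968 CPM in batch 2. MDK (midkine) rose by 0.49 ± 0.07, but its batch 2 libraries (22.6 to 26.8 CPM) lay within the range of batch 1 (21.7 to 28.4 CPM). The ALKAL ligands of ALK and the ligand of NTRK3 were scarce: ALKAL2 had no count in any library and ALKAL1 at most 2 counts, and NTF3, the ligand of NTRK3, had at most 3 counts.

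All 8 tested genes among the 12 other receptors and co-receptors were called in batch 2, 4 higher and 4 lower, beside the 53.9% of all genes. LTK, the kinase closest to ALK, fell by 1.40 ± 0.12, from 4.72 to 8.06 CPM elsewhere to 2.24 to 2.59 CPM in batch 2. NCAM1, an adhesion molecule that can bind GDNF, fell by 0.45 ± 0.04. Among genes whose products can pair with NGFR, LINGO1 rose by 1.92 ± 0.11, RTN4R (the Nogo receptor) by 1.58 ± 0.09 and SORCS2 by 0.56 ± 0.14, while SORT1 (sortilin), named here after its value was seen, fell by 0.49 ± 0.06.

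Of the 28 adaptors and proximal signalling genes, 27 were tested and 12 (44.4%) were called in batch 2, 7 higher and 5 lower, beside the 53.9% of all genes. GAB2, SHC1 and FRS3, which link activated receptors to RAS and PI3-kinase, rose by 0.71 ± 0.05, 0.47 ± 0.04 and 0.61 ± 0.07. DOK4, a docking protein of RET, fell by 0.98 ± 0.05, from 2137 to 2580 CPM elsewhere to 1175 to 1243 CPM in batch 2. KIDINS220, a membrane scaffold of neurotrophin receptors, fell by 0.52 ± 0.05 and SHC3 by 0.37 ± 0.05. Of the 16 ERK feedback and response genes, all tested, 9 (56.2%) were called, 7 higher and 2 lower. DUSP6, an ERK phosphatase that ERK itself induces, had 18.6 to 20.0 CPM in batch 2 and 6.71 to 9.74 CPM elsewhere (1.32 ± 0.06). EGR1 rose by 1.20 ± 0.09 and SPRY2 by 0.50 ± 0.04, whereas FOS fell by 0.95 ± 0.15 and DUSP4 fell by 0.24 ± 0.06. The list therefore did not move in 1 direction.

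**Figure D4:**
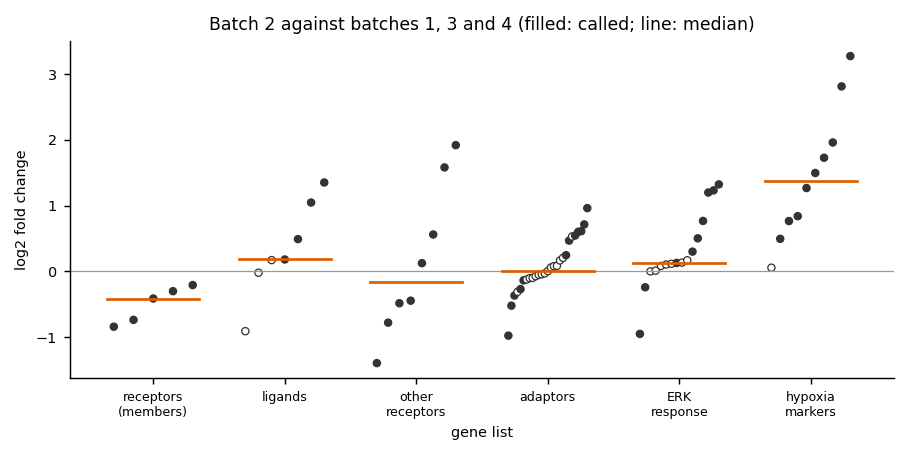
Log2 fold change of batch 2 against batches 1, 3 and 4 (y axis) for every tested gene of the members, the 4 pathway lists and the hypoxia markers; filled points were called, and the orange line is the list's median. The 5 members lie below 0, the pathway lists spread to both sides, and 9 of 10 hypoxia markers were called higher.

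Other measures moved with the batches or the constructs, and their part in the receptor differences was not tested. In the group comparisons, 0 of 10 hypoxia markers were called with group as the only term (edgeR, with at most 3 at an unadjusted p under 0.05). With the block, 0 were called higher in FL, 5 in NCTAD, 6 in cIDR and 5 in the constructs together against WT, where no member was called, and 1 in cIDR against FL. Of the 10 adrenergic markers, 2 were called higher with the block in each of NCTAD, cIDR and the constructs together against WT. All tested genes were called at 0.456%, 0.486% and 0.497% in these 3 comparisons. In the batch comparisons, 9 of the 10 hypoxia markers were called higher in batch 2, where 27.7% of all genes were. The hypoxia markers summed to 774 to 1322 CPM in batch 2 and 274 to 547 CPM in the other batches. In batch 3 and in batch 4, 1 of the 10 hypoxia markers was called higher than in batch 1, where 5.83% and 4.17% of all genes were. The sum of the mesenchymal markers, of which 7 of 10 were tested, was 54.0 to 72.2 CPM in batches 1 and 2 and 97.1 to 106 CPM in batches 3 and 4, but its genes did not move alike: 4 and 3 of the 7 were called higher in batches 3 and 4 than in batch 1, and COL1A1 was highest in batch 2, at 5.70 ± 0.62 CPM (SD, n = 4) beside means of 2.16 to 2.44 in the other batches. COL1A2 and PRRX1, which belong to that list, had no count in 13 libraries each. The Schwann cell sum was 4.78 to 6.19, 5.98 to 7.40, 5.02 to 5.61 and 3.92 to 5.01 CPM in batches 1 to 4. The adrenergic sum was 6834 to 7403 CPM in batch 1 and 5921 to 6587 CPM in the others. Mitochondrial transcripts made up 6.20% to 7.54% of counts in batches 1 and 2 and 7.30% to 10.3% in batches 3 and 4, apart from FL replicate 4 at 2.55%. The labels do not say what a batch is.

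Genes whose log2 CPM followed a member most closely over the 16 libraries were sought among 12373 named genes with a mean log2 CPM of at least 1. The closest to NTRK3 were RETREG1 (Pearson r = 0.980), PDE1C (0.969) and MICU3 (0.965), and the closest to GFRA2 were AKR1C1 (0.977), CHRM1 (0.976) and MLEC (0.972). NGFR was followed by KCTD12 (0.954), GPER1 (0.937) and SLC8A1 (0.935), RET by DOCK5 (0.931), SYT4 (0.930) and CLPB (0.926), and ALK by GALR1 (0.881), ITSN2 (0.858) and TLN2 (0.858). These values describe libraries that share batches. With batch means removed they fell to between 0.565 and 0.887, the latter for RET and SYT4. Between members, r was 0.586 to 0.879 and, with batch means removed, -0.26 to 0.545 across the 10 pairs: 0.545 remained for RET and GFRA2 (from 0.746) and 0.465 for GFRA2 and NGFR (from 0.719), and 4 pairs turned negative.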

How the data were processed

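Per the submitters' processing notes, fastp, STAR, Salmon and featureCounts were used with build GRCh38; their roles, order and versions and the annotation release are not given in the sources used here. The labels describe stranded poly(A) libraries (250 ng of RNA, 13 PCR cycles). The estimated counts that the authors deposited are not scaled; 15.5% had a fractional part of any size (no tolerance), and all were rounded. The deposited TPM values were scaled by the authors to transcript length and library total, and serve here for levels between genes.

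The column headers of the deposited tables name the WT group control, FL wild type and the line BE2c; groups follow the sample labels, and headers were matched through the library names in the labels. Genes were filtered with filterByExpr by group, normalised by TMM and tested in edgeR 4.0.16 (R 4.3.3, quasi-likelihood) over all 16 libraries, with group as the only term; a call is an adjusted p (Benjamini-Hochberg, 19530 genes) under 0.05. The batch comparisons used group and batch together. SEs were taken from the fold change and its F statistic. Alternatives used DESeq2 1.42.0, limma 3.58.1, other size factors and filters, and libraries or batches left out. The replicate number is a batch in the labels and therefore pairs the libraries: deviations from the group mean correlated with a mean r of 0.308 within batches (0.0674 to 0.712, 24 pairs) and -0.0945 between them. No replicates were copies (chi-square per degree of freedom at least 6.96). Scripts were tested on simulated data.

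Named genes were the 8 members and, per pathway list, up to 3 called genes with the smallest adjusted p in each direction in batch 2 against the others. A gene that this rule also names is not reported here. The likeness rule took the 3 genes of highest r for each tested member. The members, the lists and the comparison of batch 2 with the others were chosen with earlier results of these data known. Comparisons of pairs of batches and of all 4 groups at once were added after seeing the data. A count of 0 allows up to 3 counts, 0.0528 to 0.0812 CPM, for counting error only.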

Additional observations from a re-analysis of the deposited data

Results flagged for a closer look

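Within 29 sets of 4 libraries of a group, 4 had a library far from the other 3 by Dixon's test (critical value 0.829). Chance alone marks about 1 set in 20, but 3 of the 4 are sets in which the other 3 libraries are at 0, where any count is marked and this rate has no meaning. GFRA2 in cIDR was lowest in replicate 2, at 5.88 CPM, which is the batch 2 library, and batch 2 was the lowest batch for GFRA2 in the other groups too. NTRK2 in FL was highest in replicate 2, at 0.196 CPM, which is 10 counts beside 0 in the other 3 libraries. GFRA1 was highest in WT replicate 4, at 0.0220 CPM, and in FL replicate 3, at 0.0430 CPM, which are 1 and 2 counts beside 0 in the others.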

How the results depend on the processing

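No member was called in any of the 7 group comparisons under any alternative run: the replicate block, other size factors, other filters, DESeq2 with or without the block, limma on log2(TPM + 1) or log2(TPM + 0.1), only the compared libraries (not run for the 3 constructs together), batch 2 left out, or any single library left out. The block changed no call of a member.

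For batch 2 against the others, 5 members were called, but 3 by limma with either pseudocount, 2 without batch 3, 2 without batch 4, and 3 to 5 with single libraries left out. For batch 2 against batch 1, 1 was called, and 0 by limma. For batch 3 against batch 1, 5 were called, 2 by limma with either pseudocount and 2 to 5 with libraries left out. For batch 4 against batch 1, 4 were called, 2 by limma and 2 to 5 with libraries left out. For batch 3 against batch 2, 5 were called, 3 by limma on log2(TPM + 0.1) and 5 to 6 with libraries left out, where GFRA3 passed the filter in 13 fits and was called lower in batch 3 in 8 of them (log2 fold change -1.20 to -0.93 over the 13, adjusted p 0.0391 to 0.108). For batch 4 against batch 2, limma did not call RET with either pseudocount (adjusted p = 0.104 and 0.105). Without a low-count filter ALK missed the threshold in batch 3 against batch 1 (adjusted p = 0.0544). GFRA2 in batch 4 against batch 1 was called with median-of-ratios size factors, with at least 10 counts in every library and by DESeq2. The number of all genes called moved more: over the alternatives it was 1 to 58 in FL against WT (2 as reported), 1 to 168 in NCTAD against WT (5), 1 to 156 in cIDR against WT (2), 2 to 184 for the constructs together (3), 0 to 12 in NCTAD against FL (0), 0 to 46 in cIDR against FL (0) and 0 to 21 in cIDR against NCTAD (0). It was 529 to 3554 in batch 3 and 401 to 2813 in batch 4 against batch 1.

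Some uncalled differences changed sign. In batch 2 against batch 1, ALK was 0.0306 with at least 10 counts in every library and -0.0795 to 0.0766 with libraries left out. RET was -0.000135 with median-of-ratios size factors, -0.000138 by DESeq2 and -0.0555 to 0.0892 with libraries left out, and NTRK3 was -0.0979 and -0.152 by limma. ALK in NCTAD against FL was -0.108 and -0.191 by limma. With libraries left out, ALK in FL against WT ranged from -0.0218 to 0.143, NTRK3 in NCTAD against WT ranged from -0.498 to 0.0436, RET in cIDR against WT ranged from -0.194 to 0.00984, ALK in the constructs together against WT ranged from -0.0415 to 0.124, NTRK3 in the constructs together against WT ranged from -0.299 to 0.0562. The cause of these changes of sign and lost calls was not tested. The low counts of GFRA3, NTRK2 and GFRA1 limit what these libraries show of them.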
